A study of Sus scrofa with 17 samples.

Results

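The extracellular matrix of skeletal muscle was described here through 39 genes, which encode collagens, laminins and other basement membrane proteins, elastic fibre proteins, matrix glycoproteins and small proteoglycans, a matrix metalloproteinase and its inhibitors. They were taken by gene symbol from the 31908 genes of the Ensembl annotation of the pig assembly Sscrofa11.1. For 37 of them the symbol belonged to the Ensembl identifier, and LAMA2 and TIMP2 were identified by the position of the RefSeq gene on the same assembly. All 39 had a row of counts, and all 39 passed the filter on low counts.

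The material was longissimus muscle from male Large White × Duroc piglets aged 28 days at the start, with 1 RNA library per piglet. The 6 control piglets ate a diet of wheat, maize and soybean meal. In the diet of the 6 UL piglets, 7% of the green seaweed Ulva lactuca replaced control diet, and the 5 ULU piglets received 7% U. lactuca with 0.01% ulvan lyase, an enzyme that cleaves the seaweed's cell wall polysaccharide ulvan. After 5 days of adaptation the diets were pair-fed for 2 weeks to piglets housed singly. GEO names the muscle longissimus dorsi and the methods name it longissimus lumborum, and the methods give 6 piglets per diet for sequencing, of which 5 ULU libraries were analysed here. No treatment other than the feed was named, and the comparisons ask how U. lactuca, alone or with the enzyme, altered muscle gene expression.

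In muscle, the interstitial matrix of the endomysium, perimysium and epimysium is built mainly by fibroblasts from collagens I and III, while each fibre is wrapped in a basement membrane of laminin, collagen IV, nidogen and perlecan. Collagen chains fold into trimers in the endoplasmic reticulum and assemble outside the cell, where small proteoglycans shape the fibrils and lysyl oxidase crosslinks them. Matrix metalloproteinases cleave matrix proteins, and the TIMP proteins inhibit them.

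The libraries held 16137365 to 26546810 counted reads. The 39 genes took between 0.375% and 1.22% of them, whereas the 10 genes of highest mean count took between 25.8% and 33.8%. Levels are given as CPM, the counts of a gene per 1000000 counts of its library, after scaling by the trimmed mean of M-values (TMM), on which 3 reads corresponded to 0.130 to 0.195 CPM. Muscle fibre genes marked the tissue, with a summed level of 100400 to 268200 CPM for the 4 of 9 fibre markers that were matched to a row (ACTA1, CKM, MYL1 and TNNT3). Since whole tissue was sequenced, fewer cells of a type and less RNA per cell cannot be told apart in any level below.

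The matrix genes differed widely in level per length of gene model. COL3A1, the single chain of collagen III, was the highest at a mean level of 516 CPM per kb over the 17 libraries. It was followed by SPARC, a collagen-binding matricellular protein, at 309, by the small leucine-rich proteoglycan DCN at 248, by the collagen I chain COL1A2 at 217, by LUM, another such proteoglycan, at 140 and by the second collagen I chain COL1A1 at 133 CPM per kb. COL4A1 (51.2), COL15A1 (39.7) and COL5A2 (21.0) came next, and the 30 others were at or below the 16.5 CPM per kb of TIMP3. At the lower end stood COL18A1, precursor of endostatin, with 6 to 20 reads per library and a mean of 0.0573 CPM per kb. TNC, a glycoprotein of injured and growing tissue and of tendon, was at 0.314 CPM per kb and had no read in control replicate 25.

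**Figure D1:**
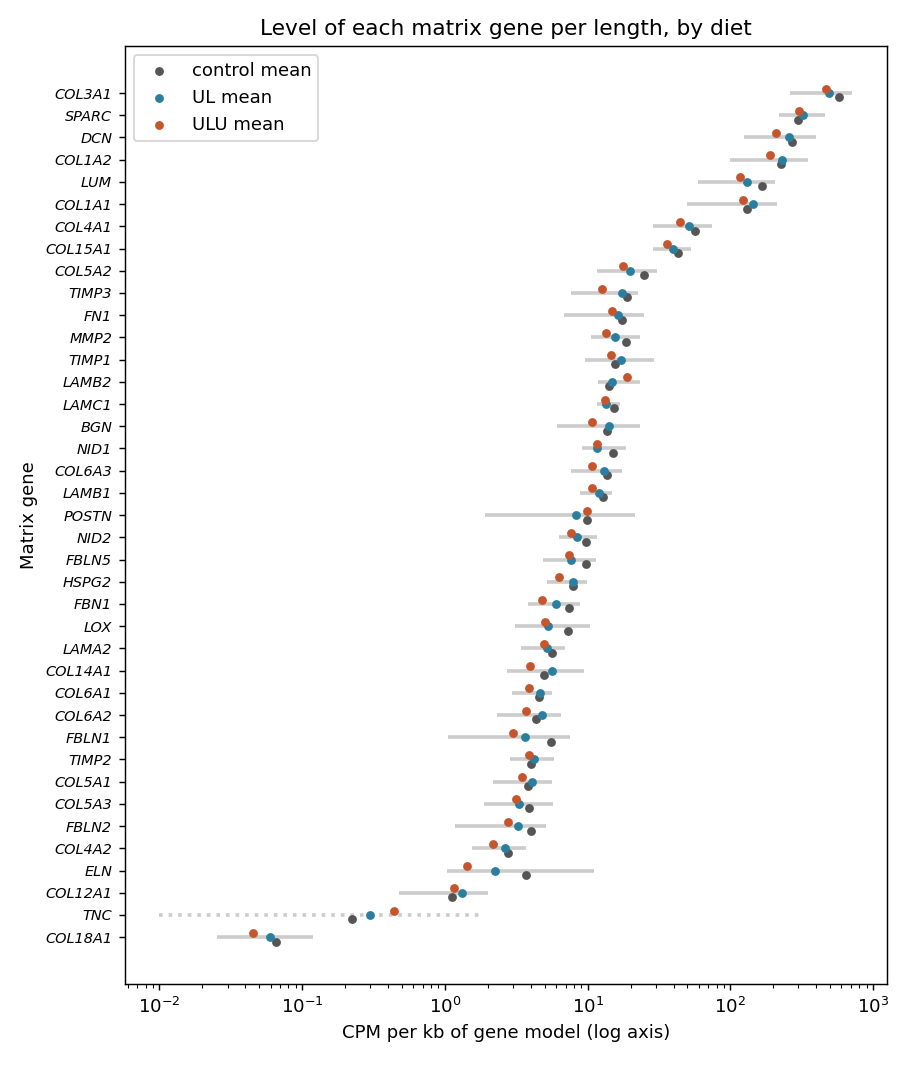
Level of each of the 39 matrix genes in CPM per kb of gene model (log axis), with points for the mean of each diet and grey bars from the lowest to the highest library. The bar of TNC is dotted because its lowest library held no read, and COL3A1, at 516 CPM per kb over all libraries, stands at the top.

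These levels depend on the gene models. COL4A1, an α chain of the collagen IV network, is split: its name belongs to a model of 2651 bases on chromosome 11 (76858296 to 76888850, minus strand), and a model without a symbol covers the 5′ part of the gene (76894904 to 76997414) with 2018 bases. Per kb, the named model held 5.31 times the reads of the other in the median library, with a range of 3.26 to 8.78. Both models belong to the same gene, so levels of different genes were compared only to within such differences. COL4A2, which lies head to head with COL4A1 on the plus strand (76997516 to 77161615), was at 2.54 CPM per kb. The model of LAMA2, the α2 chain of muscle laminin, shares 62.5% of its exonic bases with another model on the same strand, and reads that fell on both were not counted for either. COL3A1 and COL5A2 overlap on opposite strands of chromosome 15, but share no exonic base.

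COL1A1, COL1A2 and COL3A1, which build the main collagen fibrils, had the highest mean CPM of the 39 genes, not divided by length, and showed no difference between the diets beyond the spread between piglets. COL1A1 (chromosome 12, 26379090 to 26397003) was measured at 284 CPM in the lowest control, 798 at the control median and 971 in the highest. The UL piglets ranged from 566 to 1228 CPM around a median of 778, and the ULU piglets 40 to 44 had 944, 595, 903, 346 and 735 CPM. The groups overlapped over nearly their whole range, and the lowest control and the lowest ULU library stood well below the others.

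COL1A2 (chromosome 9, 74173931 to 74210398) was also lowest in control replicate 25 and ULU replicate 43. It ran from 535 to 1604 CPM in controls with a median of 1167, and from 837 to 1817 CPM in UL with a median of 1137. The ULU values were 1215, 953, 1143, 516 and 1055 CPM. COL3A1 (chromosome 15, 93556912 to 93615815) had a control median of 3521 CPM, with 5 of the 6 controls between 3487 and 3745 and replicate 25 at 1613. Its UL values ran from 1912 to 4021 CPM with a median of 2734, and its ULU values were 2732, 2665, 3808, 1460 and 2439 CPM. Most UL and ULU libraries therefore lay below 5 of the controls, with 1 library of each above all controls.

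On the log2 scale, the difference of ULU from control was -0.10 for COL1A1 (95% interval -0.71 to 0.51), -0.27 for COL1A2 (-0.83 to 0.28) and -0.31 for COL3A1 (-0.83 to 0.21). The difference of UL from control was 0.13 for COL1A1 (-0.45 to 0.71), 0.01 for COL1A2 (-0.52 to 0.53) and -0.22 for COL3A1 (-0.72 to 0.27). All of these intervals include 0.

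**Figure D2:**
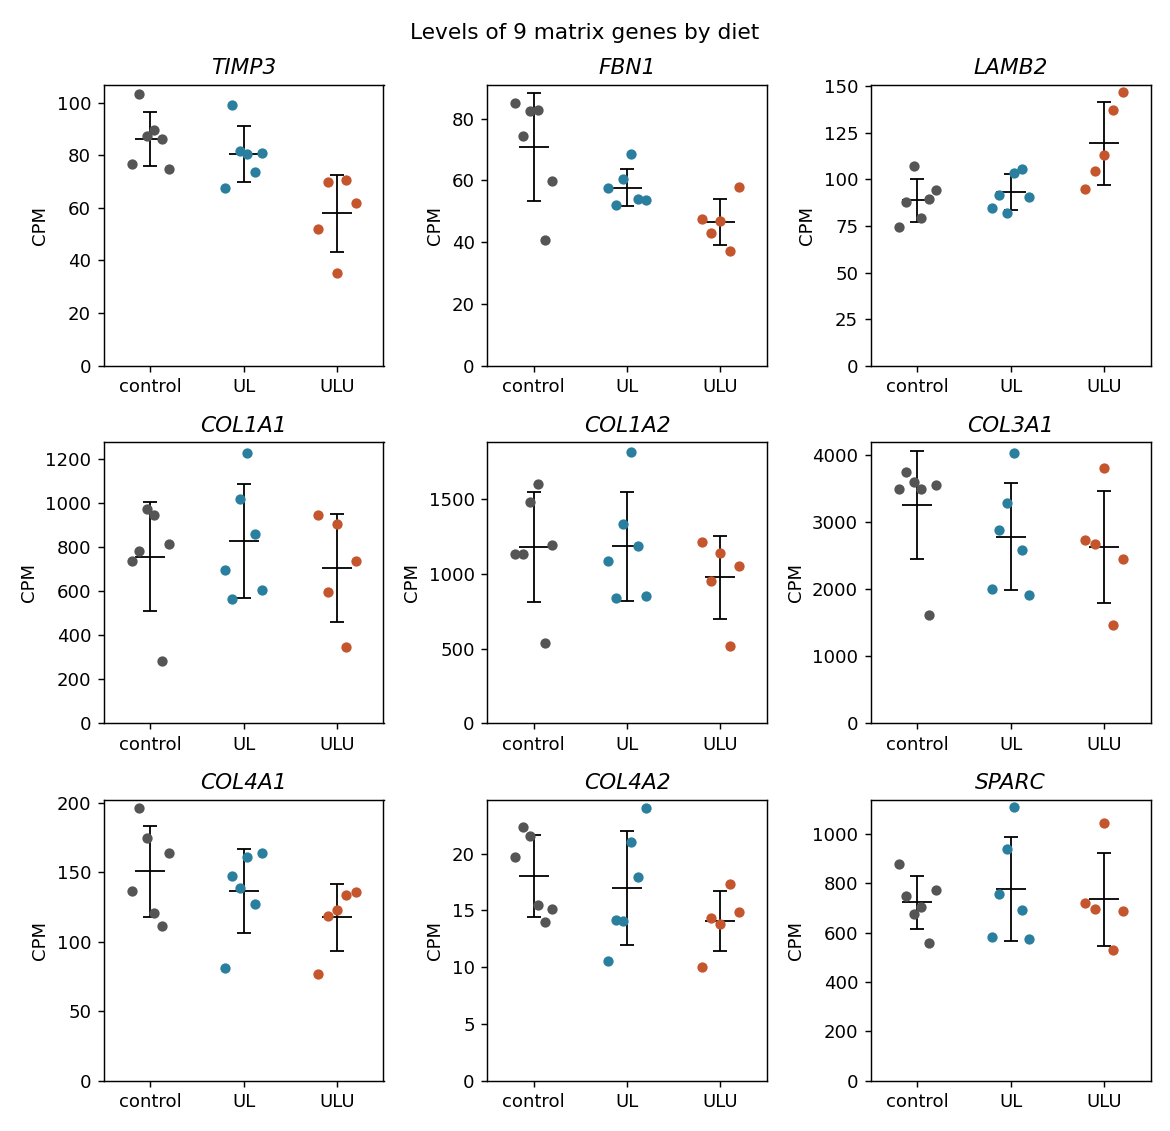
CPM of 9 matrix genes in each piglet (points) by diet, with the mean and SD (bars). The ULU points of TIMP3, between 35.4 and 70.4 CPM, lie below every control point, whereas the diets overlap for the other 8 genes.

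Comparing UL with control, none of the 39 genes passed an adjusted p of 0.05 (edgeR quasi-likelihood test, Benjamini-Hochberg over 14203 genes). The background was the same, as 0% of all genes passed. At an unadjusted p under 0.05, 2 matrix genes were lower and 0 higher, against 5.01% and 5.84% of all genes. DESeq2 also called 0 of the 37 matrix genes to which it gave an adjusted p. Fitted to the 2 diets, it called 1.48% of the 9992 genes given an adjusted p. Fitted to all libraries, it called 1.65% of 9256. Of the 39, 14 had a positive and 25 a negative log2 fold change, with a median of -0.10 beside -0.0027 for all genes tested, of which 50.5% were negative. The 6 genes of smallest p were NID1, the basement membrane linker nidogen 1 (-0.35 ± 0.13, SE), FBLN5, an elastic fibre fibulin (-0.34 ± 0.15), the microfibril gene FBN1 (-0.30 ± 0.15), the collagen V chain COL5A2 (-0.34 ± 0.18), LUM (-0.35 ± 0.19) and the laminin γ1 chain LAMC1 (-0.20 ± 0.11). Their adjusted p ranged from 0.352 for NID1 upward. FBLN5 ran from 20.6 to 32.6 CPM in controls and from 13.9 to 28.6 CPM in UL.

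In ULU against control, TIMP3 and FBN1 fell and none of the 39 rose. Those 2 genes compare with a background of 2.98% called in either direction, 0.993% called lower and 1.99% called higher among the 14203 genes. TIMP3 (chromosome 5, 12185816 to 12242637) encodes the metalloproteinase inhibitor that stays bound to the matrix. Its level was 74.7 to 103 CPM in controls with a median of 86.7, and 67.7 to 99.2 CPM in UL with a median of 80.5. The ULU piglets 40 to 44 had 52.1, 69.8, 35.4, 70.4 and 61.9 CPM, so every ULU library was below every control, and 3 of the 5 were also below every UL library. The log2 fold change was -0.58 ± 0.15 (SE; adjusted p = 0.0460 by edgeR).

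FBN1 (chromosome 1, 123102009 to 123359649) encodes fibrillin 1, the main protein of the microfibrils that scaffold elastin. Controls ran from 40.7 to 85.1 CPM with a median of 78.4, UL from 52.0 to 68.4 CPM with a median of 55.8, and the ULU piglets had 47.4, 43.1, 46.9, 37.1 and 57.8 CPM. The groups overlapped because control replicate 25, at 40.7 CPM, lay below 4 of the 5 ULU libraries. The log2 fold change was -0.61 ± 0.16 (SE; adjusted p = 0.0485 by edgeR).

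Both calls lay close to the threshold. Neither gene was called when only the control and ULU libraries were fitted (adjusted p = 0.0888 for TIMP3 and 0.0995 for FBN1) or without the filter on low counts (0.0642 and 0.0677), while DESeq2 called both together with ELN (lower) and LAMB2 (higher). With DESeq2 on the 2 diets, these 4 of 38 genes stood beside 7.31% called of the 11296 genes given an adjusted p. With DESeq2 on all libraries, the share was 9.08% of 11745. Leaving out 1 library at a time gave between 0 and 7 called genes, all of them lower, with adjusted p between 0.0425 and 0.102 for TIMP3 and between 0.00572 and 0.118 for FBN1.

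The direction of the group as a whole was mostly negative in ULU against control. There, 34 of the 39 genes had a negative and 5 a positive log2 fold change, beside 53% negative among all genes. The median was -0.31 beside -0.028. The genes were measured in the same piglets and several rose and fell together, so the signs are not 39 separate observations in any comparison. At an unadjusted p under 0.05, 11 were lower and 1 higher, beside 8.78% and 10.1% of all genes. Only TIMP3 had every ULU library below every control, which 1.09% of all genes did. None of the 39 met the stricter rule that also asks for a 2-fold difference, beside 0.415% of all genes.

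**Figure D3:**
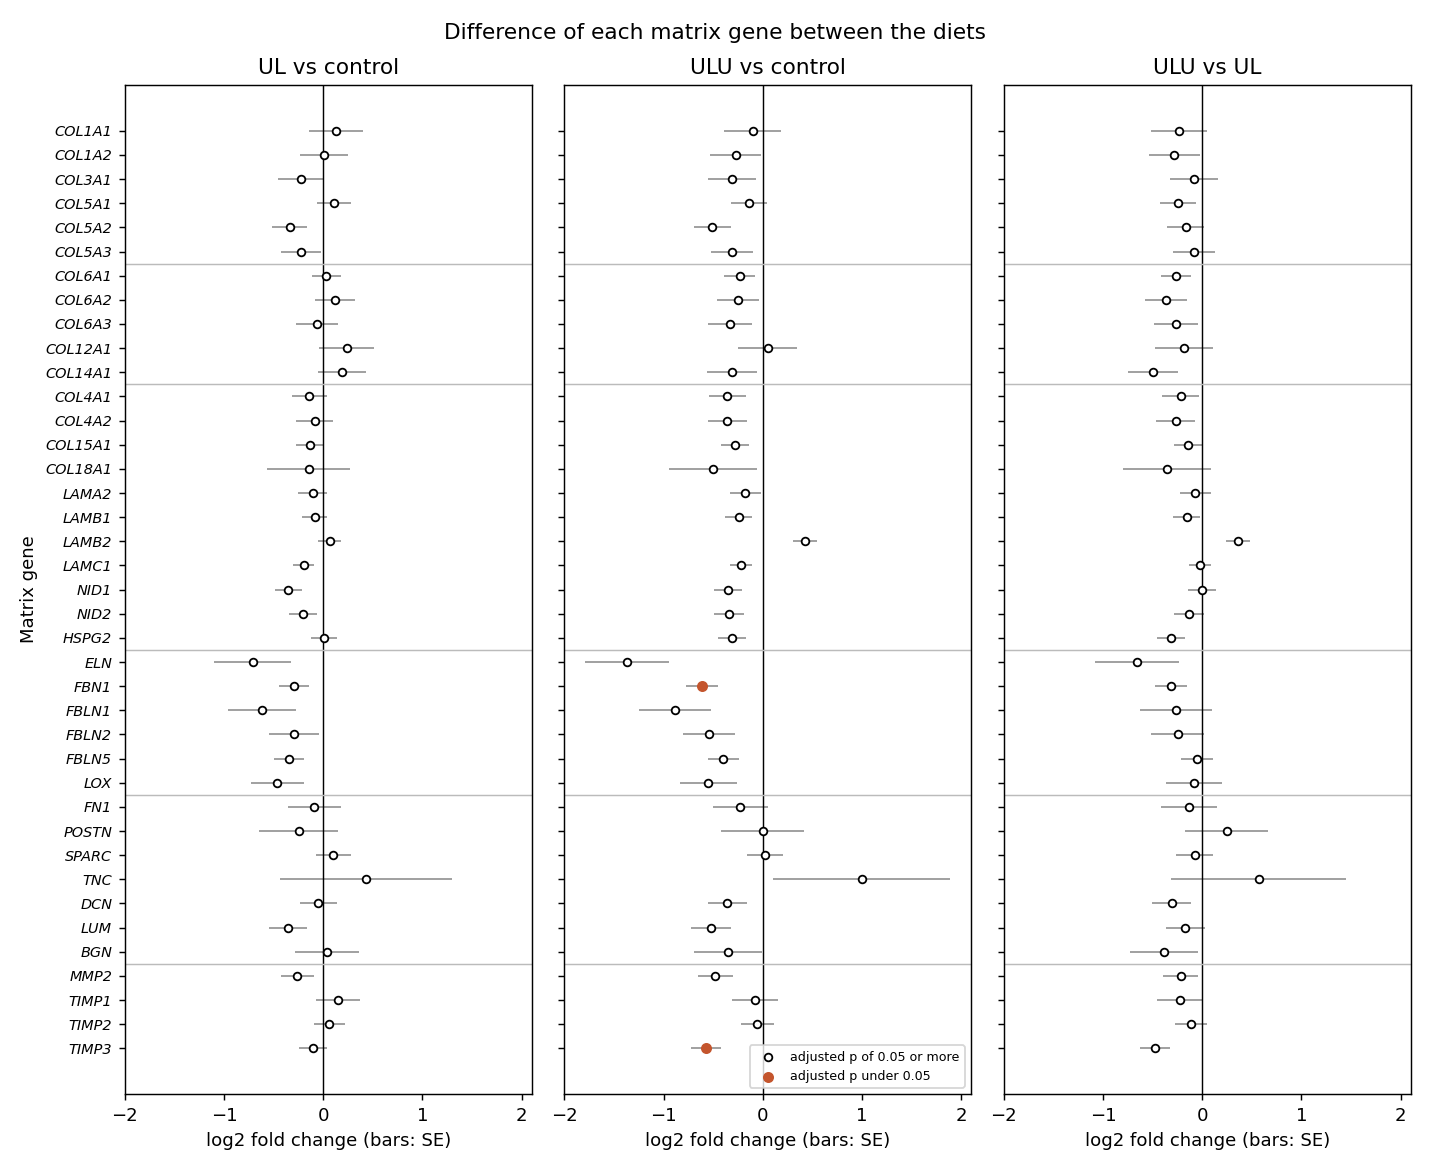
Log2 fold change of each matrix gene with its SE (bars) between each pair of diets, grouped by role between the grey lines; filled points have an adjusted p under 0.05. In ULU vs control 34 of 39 points lie left of 0 and only FBN1 and TIMP3 are filled, while LAMB2 lies to the right at 0.42.

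By role, all 6 fibrillar collagens had a negative value in ULU against control (median -0.29) and none was called. The lowest was COL5A2, a chain of the collagen V that nucleates collagen I fibrils (-0.51 ± 0.19, SE; adjusted p = 0.143 by edgeR). COL5A2 was at 94.8 to 211 CPM in controls, at 109 to 186 CPM in UL and at 110, 134, 150, 81.1 and 135 CPM in the ULU piglets 40 to 44. Of the beaded and fibril-associated collagens, 4 of 5 were negative (median -0.25) and none was called. They comprise the 3 chains of collagen VI, which forms beaded filaments around the fibres, and COL12A1 and COL14A1, which bind fibril surfaces.

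In the basement membrane group, 10 of 11 genes were negative in ULU against control (median -0.31) and none was called. COL4A1 was at 111 to 196 CPM in controls with a median of 150. It was at 80.8 to 164 CPM in UL with a median of 143, and at 76.4, 119, 123, 133 and 136 CPM in ULU. COL4A2 was at 13.97 to 22.3 CPM in controls with a median of 17.6, at 10.5 to 24.0 CPM in UL with a median of 16.04, and at 10.003, 14.4, 13.8, 17.3 and 14.8 CPM in ULU. Both chains were lowest in the same ULU library, replicate 40, and within UL both were lowest in replicate 27. Their log2 fold changes were -0.36 each, with SE of 0.19 and 0.20. For the nameless 5′ model of COL4A1, the value was -0.61 ± 0.25 in ULU against control and -0.86 ± 0.25 in ULU against UL (adjusted p = 0.181 and 0.227 by edgeR), beside -0.36 ± 0.19 and -0.22 ± 0.19 for the named model. In UL against control the signs of the 2 models were opposite, at 0.24 ± 0.23 for the nameless and -0.14 ± 0.18 for the named model.

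LAMB2 was the exception in the basement membrane. It encodes the laminin β2 chain, enriched at the neuromuscular junction, and lies on chromosome 13 (31738284 to 31771220). Controls ran from 74.7 to 107 CPM with a median of 88.9, UL from 82.0 to 105 CPM with a median of 91.3, and the ULU piglets 40 to 44 had 94.8, 104.4, 113, 137 and 147 CPM. The 3 highest of all libraries were ULU, while the 2 others overlapped with the controls. The log2 fold change of 0.42 ± 0.12 (SE) missed the threshold (adjusted p = 0.0644 by edgeR). For LAMB1, the β1 chain that is used in place of β2 in many laminins, the same value was -0.24 ± 0.13. The ratio of LAMB2 to LAMB1 in reads per kb, chosen after the values were seen and not tested, was 0.860 to 1.56 in controls, 1.00 to 1.52 in UL and 1.37 to 2.15 in ULU. The exons of LAMB1 overlap with those of DLD on the opposite strand over 6.38% of their bases, and those of LAMB2 with USP19 over 6.47%.

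All 6 elastic fibre genes had a negative value in ULU against control (median -0.58), of which FBN1 fell as given above and 5 did not pass the test. ELN, the elastin gene, had the largest value at -1.37 ± 0.42 (SE; adjusted p = 0.0805 by edgeR). The size of this value depended on 1 piglet, control replicate 24, which had 26.5 CPM. The other 5 controls had 3.65 to 8.07 CPM, the UL piglets 3.86 to 6.92, and the ULU piglets 4.59, 3.70, 3.51, 2.46 and 2.63. Without control replicate 24 the value was smaller but still negative, at -0.62, and the adjusted p was 0.178 by edgeR. The fibulins FBLN1 (-0.88 ± 0.36), FBLN2 (-0.54 ± 0.26) and FBLN5 (-0.40 ± 0.16) and the crosslinking enzyme LOX (-0.55 ± 0.28) had adjusted p of 0.175 or more by edgeR. The same 6 genes were also all negative in UL against control (median -0.40), where none passed. Both comparisons share their controls.

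Among the glycoproteins and small proteoglycans, 4 of 7 had a negative value in ULU against control (median -0.23) and none was called. SPARC was at 556 to 876 CPM in controls with a median of 725, at 575 to 1108 CPM in UL with a median of 723, and at 721, 697, 1042, 530 and 685 CPM in ULU. Its log2 fold change was 0.03, with a 95% interval of -0.37 to 0.42. LUM was lower at an unadjusted p under 0.05 (-0.52 ± 0.20, SE; adjusted p = 0.154 by edgeR). POSTN, a matricellular protein of fibroblasts, and TNC varied most among the ULU piglets. POSTN had 72.3, 61.2, 174, 15.5 and 76.0 CPM and TNC 1.18, 1.95, 15.6, 0.148 and 0.973 CPM, the latter with 1 library at about the level of 3 reads.

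The protease MMP2, which degrades basement membrane collagen and gelatin, had 37.4 to 81.7 CPM in controls and 42.6, 51.0, 59.3, 41.2 and 43.1 CPM in ULU (-0.48 ± 0.18, SE; adjusted p = 0.143 by edgeR). The inhibitors TIMP1 and TIMP2 differed from control by -0.08 (95% interval -0.57 to 0.42) and -0.05 (-0.40 to 0.30) in ULU, beside -0.58 (-0.90 to -0.25) for TIMP3. Whether TIMP3 differed from them in its change was not tested.

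In ULU against UL, diets that differ by the enzyme, none of the 39 genes was called, beside 0.0352% of all genes. Of the 39, 36 had a negative and 3 a positive value, beside 53% negative among all genes, with a median of -0.22 beside -0.021. At an unadjusted p under 0.05, TIMP3 (-0.48 ± 0.15, SE) and the perlecan gene HSPG2 (-0.31 ± 0.14) were lower and LAMB2 (0.36 ± 0.12) higher, beside 4.68% of genes lower and 6.16% higher. The adjusted p of TIMP3 was 0.267 and that of LAMB2 0.300 by edgeR. DESeq2 fitted to all libraries called these 2 genes of the 23 to which it gave an adjusted p (0.0426 and 0.0498). In that fit it called 8.92% of the 2780 genes given an adjusted p, a similar share. The next genes by p were COL14A1 (-0.50 ± 0.26), FBN1 (-0.31 ± 0.16) and COL6A1 (-0.27 ± 0.15). The median was -0.12 without ULU replicate 43 and -0.31 without ULU replicate 42.

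Within a diet, the libraries were spread widely. Control replicate 25 had the lowest level of its diet for 35 of the 39 genes, with a summed level of 5231 CPM against 9685 to 10403 in the other controls. ULU replicate 43 had the lowest of its diet for 21 genes and a summed level of 4911 CPM against 7644 to 9984. UL replicate 30 had the highest of its diet for 24 genes, and ULU replicate 42 for 19. Control replicate 25 and ULU replicate 43 also had the most counted reads of their diets, at 23433672 and 26546810. Whether the number of reads had a part in their low levels was not tested. Without control replicate 25, 7 genes were called in ULU against control (TIMP3, FBN1, COL5A2, ELN, HSPG2, MMP2 and NID1, all lower), beside 2.28% of all genes called lower in that fit, and the median was -0.42. Without both low libraries, a fit added after the data were seen, the called genes were again TIMP3 and FBN1 and the median was -0.34.

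**Figure D4:**
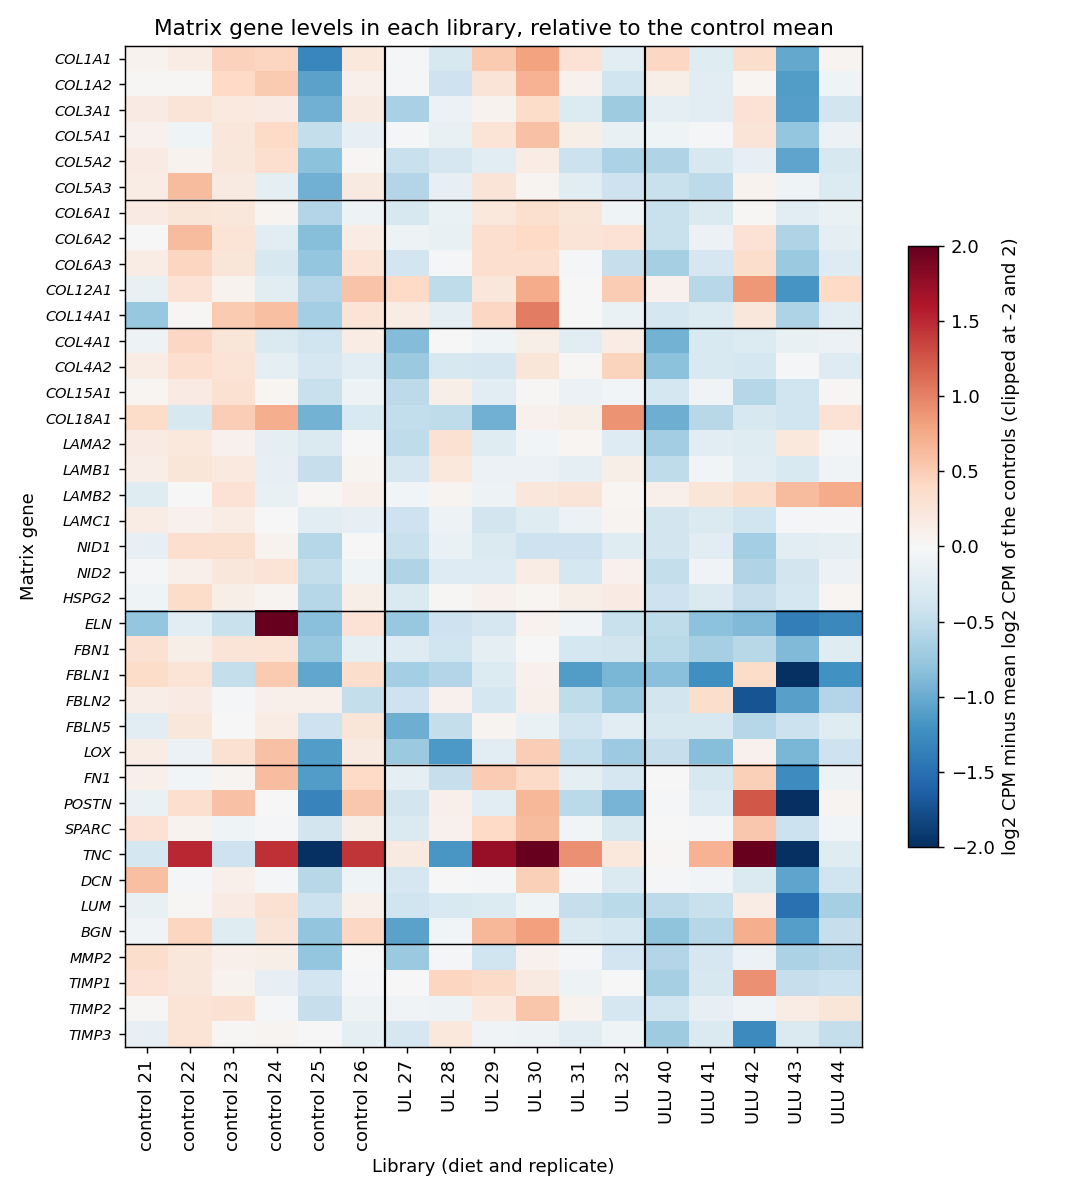
Log2 CPM of the 39 matrix genes (rows, by role between the horizontal lines) in the 17 libraries (columns), minus the mean of the controls; red is higher and blue lower. Control 25 and ULU 43 are blue across most rows, and in ULU 42 POSTN, TNC and TIMP1 are red while FBLN2 and TIMP3 are blue.

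The 2 low libraries differed in their basement membrane genes. Relative to the control mean, the median log2 difference of the 6 fibrillar collagens was -1.04 in ULU replicate 43 and that of the 11 basement membrane genes -0.21. In control replicate 25 both were the lowest of the controls, at -0.96 and -0.44. ULU replicate 42 was at 0.17 for the fibrillar and -0.36 for the basement membrane genes, and UL replicate 30 at 0.48 and 0.04.

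After removal of the diet means, the 2 chains of collagen I followed each other closely across the 17 libraries. The chain pairs of collagens IV and VI did so less closely, and less than COL1A1 with COL3A1, genes of different collagens. COL1A1 and COL1A2 had a Pearson r of 0.98 and a Spearman rho of 0.96, both with a permutation p of 1e-05, the smallest that 100000 permutations within diets can give, and adjusted p of 7e-05 over 7 relations. COL1A1 with COL3A1 had r = 0.88 and rho = 0.80 (permutation p = 0.00087 and 0.00065, adjusted 0.00152 and 0.00227), and COL1A1 with SPARC r = 0.70 and rho = 0.66 (permutation p = 0.00224 and 0.00818, adjusted 0.00314 and 0.0115). COL4A1 with COL4A2 had r = 0.82 and rho = 0.78 (permutation p = 0.00045 and 0.00143, adjusted 0.00145 and 0.00250), and COL6A1 with COL6A2 r = 0.80 and rho = 0.77 (permutation p = 0.00062 and 0.00107, adjusted 0.00145 and 0.00250).

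Without the 2 libraries farthest from the median of the first gene, r was 0.95 for COL1A1 with COL1A2, 0.70 with COL3A1 and 0.61 with SPARC, and 0.67 and 0.65 for the collagen IV and VI pairs. COL1A1 with DCN had r = 0.71 and rho = 0.59 (permutation p = 0.00637 and 0.0212, adjusted 0.00743 and 0.0248), but r was 0.39 without control replicate 25 and ULU replicate 43, so that this relation rests largely on those libraries. The relation of COL1A1 with COL4A1, added after the data were seen, gave r = 0.11 and rho = 0.13 (permutation p = 0.702 and 0.637, also after adjustment), and -0.04 without the same 2 libraries. All genes of a library share its depth and scaling.

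**Figure D5:**
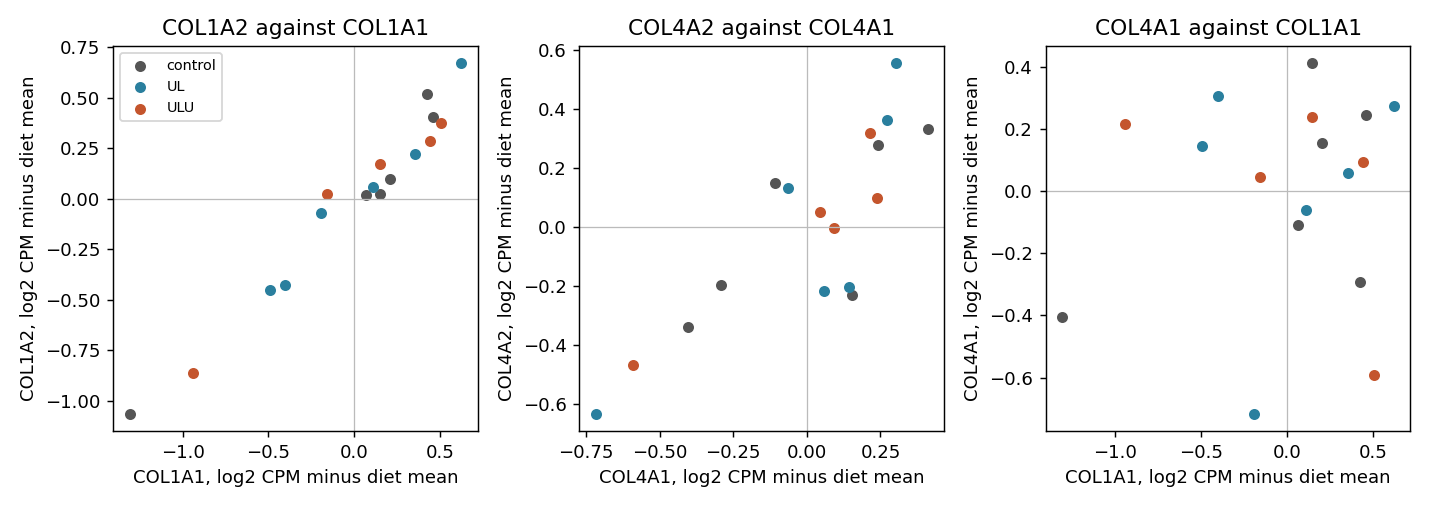
Log2 CPM minus the diet mean in the 17 libraries for COL1A2 against COL1A1, COL4A2 against COL4A1 and COL4A1 against COL1A1, coloured by diet. The first pair lies close to a line (r = 0.98), the second less so (r = 0.82) and the third is scattered (r = 0.11).

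The ratio of chains within a collagen was compared between the diets on the reads per kb of the same library, with 5 ratios and 3 comparisons in a two-sided exact permutation test. None of the 15 passed after Benjamini-Hochberg adjustment. The ratio of COL5A1 to COL5A2 came closest. It was 0.135 to 0.196 in controls with a median of 0.150, 0.175 to 0.224 in UL with a median of 0.212, and 0.177 to 0.222 in ULU with a median of 0.191. On the log2 scale UL exceeded control by 0.43 (exact p = 0.00433, adjusted 0.0649) and ULU exceeded control by 0.35 (exact p = 0.0173, adjusted 0.130). COL1A1 to COL1A2 had medians of 0.588, 0.623 and 0.627 in control, UL and ULU, which differed from control by 0.15 and 0.17 on the log2 scale (exact p = 0.0541 and 0.0952, adjusted 0.271 and 0.357). The ratio of COL4A1 to COL4A2 had medians of 19.6, 18.7 and 20.2, that of COL6A1 to COL6A2 1.11, 1.00 and 1.08 and that of COL6A3 to COL6A1 2.91, 2.85 and 2.66, with exact p of 0.323 or more. COL4A1 was here its named model alone, which held 5.31 times the reads per kb of the nameless model in the median library. The size of its ratio to COL4A2 therefore depends on the split of the gene.

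Genes that make, process, sense or degrade the matrix were counted in 5 lists. Among all genes tested in ULU against control, 53% were negative, 0.993% were called lower and 1.99% higher. The 14 genes of collagen folding, hydroxylation and crosslinking had 12 negative values in ULU against control (median -0.17), and none was called. Those of smallest p were CRTAP, a partner of the prolyl 3-hydroxylase (-0.46 ± 0.16, SE), and the prolyl 4-hydroxylase subunit P4HA1 (-0.34 ± 0.14). All 8 tested genes of procollagen trimming and fibril assembly were negative (median -0.38) with none called. They were led by the proteoglycans OGN (-0.57 ± 0.19, and -0.48 ± 0.18 in UL against control) and PRELP (-0.66 ± 0.30, and -0.46 ± 0.28 in UL against control). Of the 11 tested genes of matrix breakdown, 9 were negative (median -0.39) with none called, led by the aggrecan- and versican-cleaving proteases ADAMTS9 (-0.45 ± 0.17) and ADAMTS5 (-0.67 ± 0.26).

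In the list of TGF-beta signalling, the main pathway that induces matrix genes in fibroblasts, 17 of 18 genes were negative in ULU against control (median -0.34). Beside 0.993% of all genes called lower, 1 of the 18 fell. This was LTBP1, which tethers latent TGF-beta to fibrillin microfibrils. It was at 65.5 ± 10.1 CPM in controls (SD, n = 6), 48.2 ± 4.40 in UL (SD, n = 6) and 45.7 ± 8.96 in ULU (SD, n = 5). Its log2 fold change in ULU against control was -0.52 ± 0.13 (SE, adjusted p = 0.0391 by edgeR). In UL against control it was -0.44 ± 0.12 (adjusted p = 0.190 by edgeR), and in ULU against UL -0.08 ± 0.13. The type I receptor TGFBR1 followed in ULU against control at -0.49 ± 0.14 (adjusted p = 0.0640 by edgeR). Of the 15 cell receptors of the matrix, 9 were negative and 6 positive (median -0.10) and none was called. ITGA7, the integrin α7 chain of the muscle laminin receptor, was at 0.43 ± 0.13 and its partner ITGB1 at -0.35 ± 0.12 (adjusted p = 0.0713 and 0.112 by edgeR). No gene of these 5 lists was called in UL against control or in ULU against UL, where the medians lay between -0.26 and 0.0079 and between -0.21 and -0.093.

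Levels of cell type markers are given beside these results, and their part in them was not tested. In ULU against control, 7 of 8 fibroblast markers were negative (median -0.33), beside 53% of all genes, and none was called. The 2 of smallest p were TCF7L2, the only positive one (0.37 ± 0.14, SE), and PDGFRA (-0.43 ± 0.17). Their summed level was 147 to 381 CPM in controls, 185 to 340 in UL and 132 to 283 in ULU. Only 4 of the 9 listed muscle fibre markers were matched to a row. MYH1, MYH2, MYH4, MYH7 and TTN were not matched, although the paper lists MYH2 among its most abundant genes. The 4 matched markers therefore include no myosin heavy chain. All 4 were positive (median 0.60) and 1 rose, beside 1.99% of all genes called higher. This was TNNT3, a fast troponin T (0.66 ± 0.15, SE, adjusted p = 0.0280 by edgeR). The summed levels of the 4 were 100400 to 163400 CPM in controls, 127500 to 167900 in UL and 142600 to 268200 in ULU.

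No gene of the other marker lists was called. Their signs stand beside the same 53% negative among all genes. In ULU against control the values were negative for 4 of 6 pericyte and smooth muscle genes (summed levels of 382 to 506 CPM in controls and 344 to 474 in ULU), 3 of 4 tendon genes (33.3 to 97.7 and 31.8 to 96.0) and 3 of 5 endothelial genes (99.9 to 160 and 103.6 to 181). They were negative for 4 of 4 adipocyte genes (75.9 to 580 and 25.2 to 143), 5 of 5 leukocyte genes (21.2 to 112 and 14.9 to 106) and 2 of 2 Schwann cell genes (1.85 to 10.4 and 0.444 to 6.29), and for 2 of 4 satellite cell genes (44.1 to 64.3 and 49.0 to 71.4). The tendon factor SCX and COMP, LEP and SOX10 did not pass the filter on low counts, and no listed marker was at 0 in every library.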

How the data were processed

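Per the labels and the study's methods, muscle RNA was sequenced in single reads of 75 nt, trimmed by the authors (fastp) and aligned to Sscrofa11.1 (HISAT2); the deposited values are unnormalized read counts per gene made with featureCounts. The file header names version 2.0.1 and Ensembl 104 with no option for strand or shared reads (the methods name Subread 1.5.1), so reads on exons of more than 1 gene or at several sites were left out. Besides the counts, the authors deposited their mean per gene, used only as a check. Counts were scaled by TMM and filtered (filterByExpr, 14203 genes kept), and tested with edgeR 4.0.16 (R 4.3.3; quasi-likelihood, 1 model of all 17 libraries, adjusted p under 0.05). DESeq2 1.42.0, other scalings and filters, fits of the 2 diets alone and the omission of each library were alternatives. Intervals are 95% from the SE with 14 degrees of freedom. Fits were tested on simulated counts. Each library is 1 piglet, and no library was identical to another. The precision is that of 5 or 6 piglets, since all members but COL18A1 and TNC had at least 50 reads per library. The members and lists were chosen with earlier results of these data known. All members may be named with their levels; tests are given for those called or for the 6 of smallest p in a comparison, and for listed genes called or the 2 of smallest p; other named genes were chosen after their values were seen.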

Additional observations from a re-analysis of the deposited data

Results flagged for a closer look

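The 39 genes were screened in 117 groups (each gene in each diet) for a library far from the others of its diet, by Dixon's criterion, which flags about 1 in 20 groups by chance; 11 were found. Control replicate 25 was low for COL1A1 (284 CPM, others 738 or more), COL3A1 (1613 CPM, others 3487 or more) and COL5A2 (94.8 CPM, others 172 or more). ULU replicate 42 was high for TNC (15.6 CPM, others 1.95 or less), BGN (35.5 CPM, others 15.5 or less) and TIMP1 (30.2 CPM, others 12.7 or less). Single libraries stood apart for ELN (26.5 CPM in control replicate 24, others 8.07 or less), COL4A1 (76.4 CPM in ULU replicate 40, others 119 or more), HSPG2 (96.6 CPM in UL replicate 27, others 121 or more), FBLN2 (12.3 CPM in control replicate 26, others 16.9 or more) and DCN (682 CPM in UL replicate 30, others 496 or less).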

How the results depend on the processing

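In ULU against control, the 2 called genes became 0 without the filter on low counts, 0 with only the 2 diets fitted, and 0 under the rule that adds a log2 fold change of at least 1. They became 4 with DESeq2 on the 2 diets (beside 7.31% of the genes given an adjusted p) and 4 with DESeq2 on all libraries (beside 9.08%). Omitting 1 library gave 0 to 7: 7 without control replicate 25, 1 without control replicate 21, UL replicate 28 or 30 or ULU replicate 44, 2 without UL replicate 27 or ULU replicate 42 (without the latter FBLN1 and LUM), and 0 without any of the 10 others. In ULU against UL, the count went from 0 to 2 with DESeq2 on all libraries. That fit gave an adjusted p to 23 of the 39 genes and to 2780 genes in all, of which it called 8.92%. The cause of these changes was not tested. Other scalings left the counts unchanged in every comparison, and UL against control stayed at 0 throughout. The median over the 39 genes stayed negative in every fit, between -0.18 and -0.037 in UL against control, -0.42 and -0.25 in ULU against control and -0.31 and -0.11 in ULU against UL when 1 library was omitted. Of the chain ratios, those near 0 changed sign on omission of a library: COL1A1 to COL1A2 in ULU against UL (-0.015 to 0.070 on the log2 scale), COL4A1 to COL4A2 in UL against control (-0.10 to 0.044), ULU against control (-0.056 to 0.073) and ULU against UL (-0.021 to 0.10), COL6A1 to COL6A2 in ULU against control (-0.097 to 0.066) and COL6A3 to COL6A1 in ULU against UL (-0.15 to 0.064). No ratio passed the test in any alternative. No paired analysis was possible because no replicate number is shared between diets.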
